A study of Mus musculus with 10 samples.

Results

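The regions described here were the H4K20me1 peaks that lay on an autosome and were listed with no gene in the deposited peak table. There were 9044 such intergenic peaks, 20.1% of the 44925 H4K20me1 peaks and 22.1% of the 41008 on the 19 autosomes. The other 31964 autosomal peaks were listed with a gene and served for comparison. H4K20me1 (histone H4 monomethylated at lysine 20) and RNA polymerase II phosphorylated at serine 2 (Pol II S2P, the elongating form) were mapped by CUT&RUN, which cuts DNA next to an antibody's target and sequences the fragments, in cultured mouse muscle stem cells (MuSCs). Control cells (Ctrl, genotype Pax7CreERT/Suv4-20h1WT) came from mice with intact Kmt5b, the gene formerly called Suv4-20h1. Mutant cells (sKO, Pax7CreERT/Suv4-20h1KO) came from mice with floxed Kmt5b alleles deleted in satellite cells. Both genotypes carried the tamoxifen-inducible Cre at Pax7, so recombination was directed to cells that express Pax7. The mice were adult and of both sexes, and the cells were isolated with magnetic beads and cultured before mapping. Each genotype had 2 libraries per antibody.

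H4K20 is monomethylated by KMT5A, and KMT5B and KMT5C add further methyl groups to make the di- and trimethylated forms. Loss of KMT5B removes an enzyme that uses H4K20me1 as its substrate. H4K20me1 typically forms broad domains over transcribed genes and marks the inactive X chromosome.

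Sequence is shown first for the tested intergenic peaks with the highest H4K20me1 score per kb in cells with intact Kmt5b. Tested peaks had a mean score over 50 across the 4 libraries of both genotypes. The peaks chosen were 0.6 to 0.8 kb long, and their background was not checked against IgG. Each window holds the 300 bases at the middle of the peak in GRCm38.p6, taken from RefSeq. Capitals mark matches on either strand to 5 short motifs, namely AP-1 TGANTCA, E-box CAGCTG, TEAD GGAATG, MEF2 TATTTATAG and KLF GGGNGNGG, and matches may overlap.
4933405E24Rik window, chr11:54214650-54214949, plus strand: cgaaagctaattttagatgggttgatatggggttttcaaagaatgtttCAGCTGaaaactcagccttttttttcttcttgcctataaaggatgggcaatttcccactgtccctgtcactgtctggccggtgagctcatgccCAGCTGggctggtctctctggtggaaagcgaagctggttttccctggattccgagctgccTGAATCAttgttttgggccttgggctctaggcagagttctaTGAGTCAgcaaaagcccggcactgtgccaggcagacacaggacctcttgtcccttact
Kcnk12 window, chr17:87872850-87873149, plus strand: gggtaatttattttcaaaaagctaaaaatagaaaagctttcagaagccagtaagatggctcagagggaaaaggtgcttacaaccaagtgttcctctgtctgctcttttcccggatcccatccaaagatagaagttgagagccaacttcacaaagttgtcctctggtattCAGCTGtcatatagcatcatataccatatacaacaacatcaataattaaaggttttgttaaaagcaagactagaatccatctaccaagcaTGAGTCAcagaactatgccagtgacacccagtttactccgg
Tgfbr3 window, chr5:107087350-107087649, plus strand: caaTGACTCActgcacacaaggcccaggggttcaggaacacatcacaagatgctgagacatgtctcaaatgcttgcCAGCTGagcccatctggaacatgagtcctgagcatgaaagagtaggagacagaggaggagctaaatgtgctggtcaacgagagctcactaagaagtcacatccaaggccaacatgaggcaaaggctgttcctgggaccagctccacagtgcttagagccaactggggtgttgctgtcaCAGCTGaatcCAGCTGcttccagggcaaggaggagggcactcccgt

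All 3 of these windows held at least 1 AP-1 and at least 1 E-box match. The next windows lie near Rplp1, Bcar1, Myod1 and Notch1. Each is the middle of the strongest Pol II S2P peak within its own intergenic H4K20me1 peak. Those near Rplp1 and Bcar1 were chosen for their summed Pol II S2P score, and those near Myod1 and Notch1 were added after their values were seen because their H4K20me1 rose steeply. The peak near Ywhaz had the highest summed Pol II S2P score, but the middle of that Pol II S2P peak lay outside the H4K20me1 peak and is not shown.
Rplp1 window, chr9:61908067-61908366, plus strand: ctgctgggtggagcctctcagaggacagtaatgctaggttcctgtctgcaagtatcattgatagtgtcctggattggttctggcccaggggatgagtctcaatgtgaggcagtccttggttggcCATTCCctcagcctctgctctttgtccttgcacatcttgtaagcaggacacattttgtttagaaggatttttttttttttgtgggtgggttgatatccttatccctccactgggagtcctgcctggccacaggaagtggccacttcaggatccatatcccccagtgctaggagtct
Bcar1 window, chr8:111703657-111703956, plus strand: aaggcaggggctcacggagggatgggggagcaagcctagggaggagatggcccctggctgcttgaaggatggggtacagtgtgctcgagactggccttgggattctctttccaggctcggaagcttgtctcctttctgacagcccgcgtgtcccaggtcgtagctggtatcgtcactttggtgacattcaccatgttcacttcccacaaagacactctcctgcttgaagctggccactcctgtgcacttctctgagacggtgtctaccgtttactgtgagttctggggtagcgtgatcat
Myod1 window, chr7:46365912-46366211, plus strand: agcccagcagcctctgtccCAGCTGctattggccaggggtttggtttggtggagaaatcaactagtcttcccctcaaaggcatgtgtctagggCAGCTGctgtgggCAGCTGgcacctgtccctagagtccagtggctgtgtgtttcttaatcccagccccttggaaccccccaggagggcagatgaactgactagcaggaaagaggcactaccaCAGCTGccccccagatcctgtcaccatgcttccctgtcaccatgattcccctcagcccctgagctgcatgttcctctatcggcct
Notch1 window, chr2:26532046-26532345, plus strand: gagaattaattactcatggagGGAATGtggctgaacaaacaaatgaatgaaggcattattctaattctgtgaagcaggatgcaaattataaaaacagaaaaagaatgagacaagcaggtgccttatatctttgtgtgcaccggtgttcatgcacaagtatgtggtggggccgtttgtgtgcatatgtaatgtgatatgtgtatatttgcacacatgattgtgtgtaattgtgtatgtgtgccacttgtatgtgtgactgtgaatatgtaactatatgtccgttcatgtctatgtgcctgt

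The Myod1 window held 4 E-box matches, the Rplp1 and Notch1 windows held 1 TEAD match each, and the Bcar1 window held none. No shown window overlapped an exon of GENCODE M21 or RefSeq. A match is a stretch of letters and does not show that a factor was bound.

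The values are scores, whole numbers that stand for spike-in normalised coverage over a peak and are not divided by its length. Summed over all H4K20me1 peaks they came to 15218720 and 20432644 in Ctrl against 32194136 and 35046570 in sKO. Pol II S2P scores summed to 3257665 and 4243685 in Ctrl against 4885638 and 3435908 in sKO. Of 8 markers of muscle stem cells, 6 were listed with a Pol II S2P peak, among them Pax7 and Myod1, whereas Myf5 and Cdh15 had none. None of 4 immune and none of 4 fibro-adipogenic markers had one, and 2 of 4 endothelial and 2 of 5 differentiated muscle markers did. The deleted gene Kmt5b gave a summed Pol II S2P score of 24 and 62 in Ctrl and of 48 and 22 in sKO. This does not check the deletion, since those peaks are not known to lie over the deleted part. A change in the number of cells that carry the mark and a change in its level per cell cannot be told apart in such libraries.

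Intergenic H4K20me1 peaks were shorter than those listed with a gene. Their median length was 5800 bases, with quartiles of 4000 and 8600, against 9800, 5800 and 19800 bases for gene-listed peaks. Of the intergenic peaks, 9 exceeded 50 kb, 0.0995% of the class, against 6.21% of gene-listed peaks. All 9044 covered 65.3 Mb, which was 10.7% of the 607 Mb of autosome under H4K20me1 peaks. Sequence composition differed little between the classes. The median GC content was 43.8% in intergenic and 44.4% in gene-listed peaks, and the median share of repeat-masked bases was 22.8% and 21.2%. The ratio of observed to expected CpG was 0.177 and 0.208. These values are descriptions of fixed sequence and carry no test.

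The distance to the nearest gene listed in either peak table had a median of 22.4 kb. Its quartiles were 8.13 and 59.0 kb and its maximum was 1640 kb. Genes not listed with a peak did not count, so an unlisted gene can lie nearer. The nearest listed gene was protein-coding for 69.2% of the peaks and a long non-coding RNA for 22.1%. The peak lay upstream of that gene in 4836 cases and downstream in 4208. Only 21 of the intergenic peaks overlapped any gene of GENCODE M21, and 1 of these a protein-coding gene. The next gene-listed H4K20me1 peak was a median of 23.2 kb away, and it was closer than 5 kb for 20.6% of the peaks. Intergenic peaks often stood in series. They fell into 4082 runs with no gene-listed peak between them, of which 385 runs held 5 or more peaks and 2911 peaks in all. The run with the most peaks, between Dhx35 and 4933416E03Rik on chromosome 2 (158870600 to 159879399), held 34 peaks over 1.01 Mb.

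**Figure D1:**
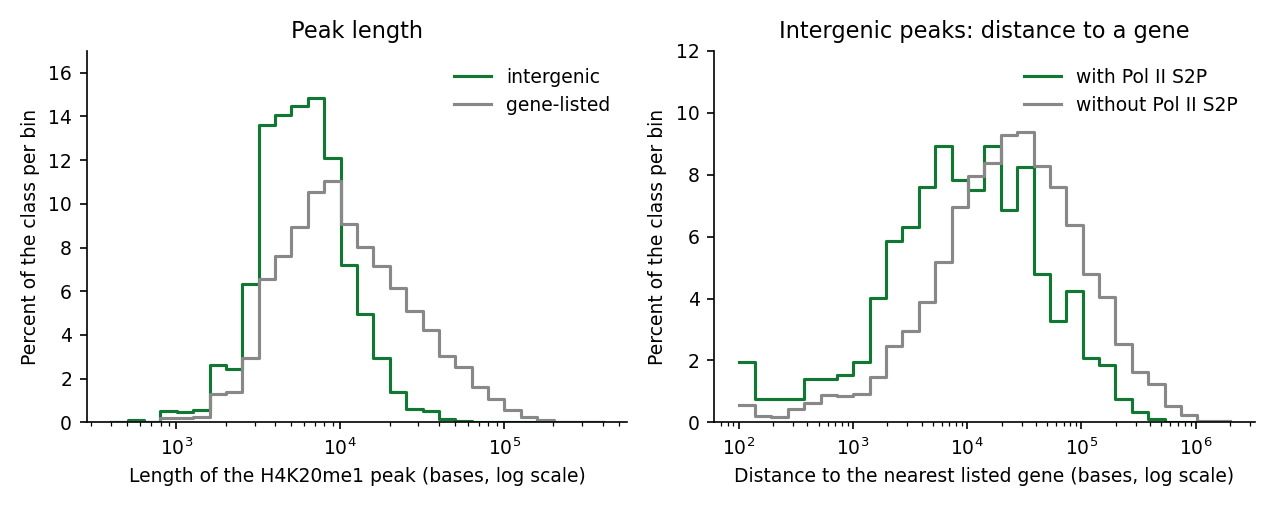
Length of autosomal H4K20me1 peaks (left, intergenic and gene-listed) and distance of intergenic peaks to the nearest listed gene (right, with and without a Pol II S2P peak), as the percent of each class per bin on a log axis in bases; distances under 100 bases are in the first bin. Intergenic peaks centre on 5800 bases against 9800 for gene-listed peaks, and those with Pol II S2P lie nearer to listed genes.

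H4K20me1 was called higher in sKO at most intergenic peaks on the deposited scale. The median score per kb of peak was 16.8 and 24.3 in the Ctrl libraries but 44.8 and 48.6 in those of sKO. The genotypes did not overlap, and the Ctrl libraries differed from each other more than the sKO libraries did. The mean rose from 20.6 ± 5.34 to 46.7 ± 2.68 (SD, n = 2 each), with an exact two-sided permutation p of 0.333, the smallest that 2 libraries against 2 can give. Of 8993 intergenic peaks with a mean score over 50, 7847 (87.3%) were called higher in sKO by limma, at an adjusted p below 0.1 with a log2 fold change above 0.5. Among all autosomal peaks tested, 90.1% were called higher, so the share of intergenic peaks lay slightly below that background. Both sKO libraries exceeded both Ctrl libraries at 8085 of these peaks (89.9%), against 93.9% of all autosomal peaks tested. The median log2 fold change was 1.20, with quartiles of 0.83 and 1.55. A single intergenic peak was called lower, and across all autosomal peaks it was also the only 1 (0.00244%). Leaving out sKO replicate 1 or 2 reduced the peaks called higher to 5203 and 4120, and leaving out Ctrl replicate 1 gave 17 called lower, whereas 0 were without Ctrl replicate 2 or without sKO replicate 2.

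The size of this rise rests on the scale between libraries, which enters all peaks of a library alike, so the calls are not independent. With the libraries scaled to equal autosomal totals, the median over all autosomal peaks moved from 1.14 to 0.17, and that of intergenic peaks to 0.22. On that scale 2219 intergenic peaks (24.7%) were called higher and 243 (2.7%) lower, against 22.6% and 4.41% of all autosomal peaks. With quantile normalisation, 923 (10.3%) rose and 1317 (14.6%) fell by the same limits, against 11.3% and 11.2% of all autosomal peaks, and the median turned to -0.05. Differences between classes of peaks within the same libraries are given next.

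Intergenic peaks held a larger part of the autosomal H4K20me1 score in sKO. They took 8.51% and 8.93% of it in Ctrl, compared with 9.78% and 9.91% in sKO. The genotypes did not overlap, and the mean rose by 1.13 percentage points, from 8.72% ± 0.30 to 9.85% ± 0.09 (SD, n = 2 each, exact two-sided permutation p = 0.333, the smallest possible). On each of the 19 autosomes, the ratio of summed scores between genotypes was higher for intergenic than for gene-listed peaks. By median change, intergenic peaks exceeded gene-listed peaks on 16 of the 19. The autosomes share the same 4 libraries and are not independent. Medians over peaks differed far less. The median change of intergenic peaks exceeded that of gene-listed peaks by 0.06 on the log2 scale in both sKO libraries, while the Ctrl libraries lay at -0.04 and 0.04 around their mean (exact two-sided permutation p = 0.333, the smallest possible). That difference turned to -0.03 when medians were taken within bins of peak length, and to -0.11 within 10 bins of the level in Ctrl replicate 1, and it was -0.05 with quantile normalisation, so the sign of the class difference depended on how peaks were matched and scaled.

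Among the length bins, that of 5 to 10 kb had the highest median change in both classes. Intergenic peaks under 5 kb had a median log2 fold change of 1.15 (3632 tested), those of 5 to 10 kb of 1.26 (3742), those of 10 to 20 kb of 1.16 (1365), those of 20 to 50 kb of 0.92 (245) and the 9 over 50 kb of 1.01. Gene-listed peaks stood at 1.22 under 5 kb, 1.25 for 5 to 10 kb, 1.16 for 10 to 20 kb, 0.99 for 20 to 50 kb and 0.81 above that. Intergenic peaks of 5 to 10 kb took 3.27% and 3.35% of the autosomal score in Ctrl and 3.89% and 3.99% in sKO. Those of 20 to 50 kb took 1.07% and 1.09% in Ctrl and 1.06% and 1.06% in sKO. Among chromosomes, the median log2 fold change of intergenic peaks ran from 1.05 on chromosome 7 to 1.37 on chromosomes 3 and 10.

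Elongating polymerase was found at a minority of the intergenic peaks. Of the 9044 peaks, 920 (10.2%, 95% Wilson interval 9.57% to 10.8%) overlapped a Pol II S2P peak by at least 1 base, against 30.0% of gene-listed peaks. Counting density rather than overlap, there were 19.7 Pol II S2P peaks per Mb of intergenic and 57.8 per Mb of gene-listed H4K20me1 peak. Of the 1285 Pol II S2P peaks inside intergenic H4K20me1 peaks, 1273 were themselves listed with no gene, which was 9.47% of the 13442 autosomal Pol II S2P peaks without a gene. Intergenic H4K20me1 peaks with Pol II S2P had a median length of 5000 bases and lay a median of 9914 bases from a listed gene. Those without it had a median length of 5800 bases and a median distance of 24532 bases.

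Intergenic peaks with Pol II S2P began lower in Ctrl and ended higher in sKO than those without. Their median score per kb was 14.8 and 18.1 in Ctrl against 49.5 and 53.0 in sKO. Without Pol II S2P it was 16.9 and 25 in Ctrl against 44.3 and 48.1 in sKO. In each library the order of these classes was the same for its genotype, lower with Pol II S2P in Ctrl and higher in sKO. The median log2 fold change was 1.70 with Pol II S2P (902 tested, 95.5% called higher) and 1.16 without it (8091 tested, 86.3% called higher). Of all autosomal peaks tested, 90.1% were called higher. With the change of each library taken from the Ctrl mean, the class with Pol II S2P exceeded the class without it by 0.58 and 0.51 in the sKO libraries, and by 0.11 and -0.11 in the Ctrl libraries. The difference between genotypes was 0.55 with a pooled SD of 0.11, and the exact two-sided permutation p was 0.333, the smallest possible. It was 0.55 with equal totals and 0.49 with quantile normalisation, and 0.60 within bins of length, 0.49 within classes of distance and 0.59 within 10 bins of GC content. Within 10 bins of the level in Ctrl replicate 1, with the change measured from Ctrl replicate 2, it was 0.41 against 0.65 without bins. Without Ctrl replicate 2 it was 0.39.

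**Figure D2:**
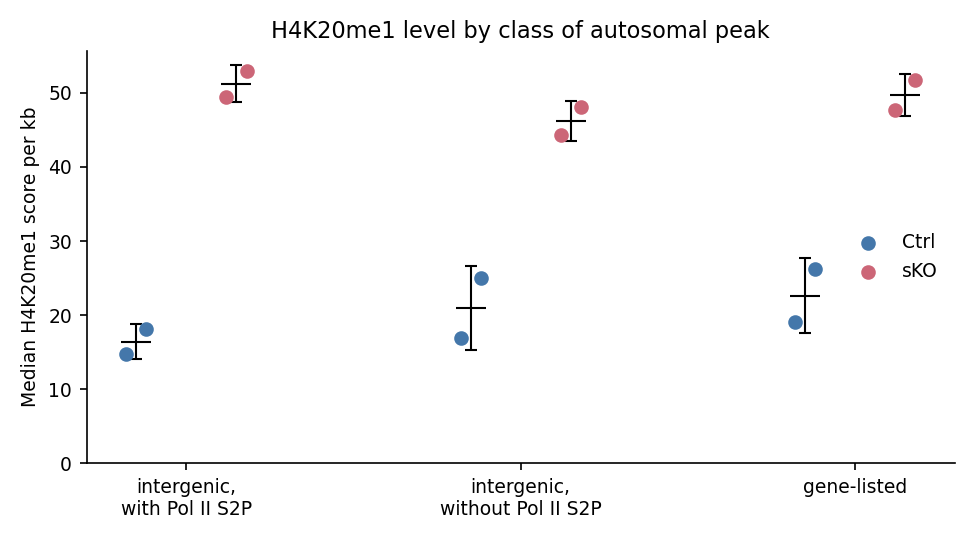
Median H4K20me1 score per kb in each library (points), with the mean and SD of 2 libraries (bars), for intergenic peaks with and without a Pol II S2P peak and for gene-listed peaks. Peaks with Pol II S2P are at 14.8 and 18.1 in Ctrl, below both other classes library by library, and at 49.5 and 53.0 in sKO, above them.

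The same contrast was much smaller among gene-listed peaks. There the median log2 fold change was 1.15 with Pol II S2P (90.05% called higher) and 1.13 without it (91.2% called higher). Taken per library, the gap between peaks with and without Pol II S2P was larger in intergenic than in gene-listed peaks by 0.56 and 0.49 in the sKO libraries. The difference between genotypes in this gap was 0.53 (pooled SD 0.07), and 0.43 (pooled SD 0.09) within bins of length, each with an exact two-sided permutation p of 0.333. Within those bins the gene-listed peaks themselves showed a gap of 0.16. Along the number of Pol II S2P peaks, the median log2 fold change of intergenic peaks was 1.16 with 0, 1.65 with 1 (680 tested), 1.92 with 2 (154 tested), 1.56 with 3 (31 tested) and 1.57 with 4 or more (37 tested).

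**Figure D3:**
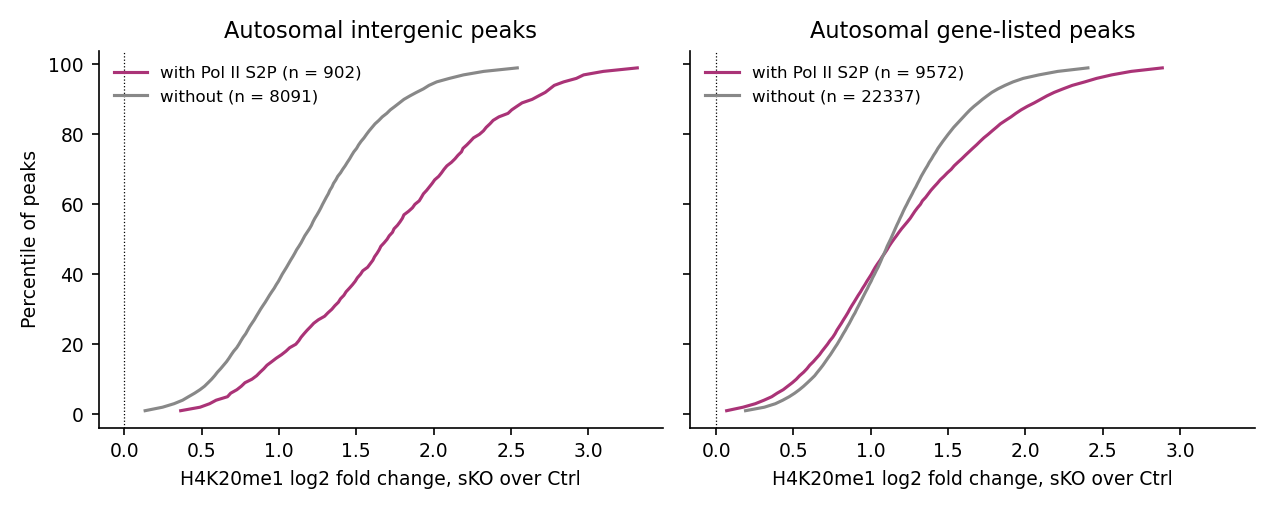
Percentiles of the H4K20me1 log2 fold change (sKO over Ctrl) over intergenic peaks (left) and gene-listed peaks (right), with and without a Pol II S2P peak. The curves stand apart for intergenic peaks, with medians of 1.70 and 1.16, and cross for gene-listed peaks, with medians of 1.15 and 1.13.

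The rise became smaller with distance from the nearest listed gene. Peaks under 5 kb from a listed gene had a median log2 fold change of 1.36 (1511 tested), those at 5 to 20 kb of 1.24 (2699), those at 20 to 100 kb of 1.12 (3486) and those over 100 kb of 1.09 (1297). The peaks over 100 kb changed less than those under 5 kb by 0.29 and 0.26 in the sKO libraries, and the Ctrl libraries stood at -0.10 and 0.10. The genotypes did not overlap, the difference was -0.28 with a pooled SD of 0.10, and the exact two-sided permutation p was 0.333. Without Ctrl replicate 2 the difference was -0.16. Overlap with Pol II S2P fell over the same classes, at 20.4%, 11.6%, 7.04% and 3.77%. Among peaks without Pol II S2P, the medians still ran from 1.32 under 5 kb to 1.08 over 100 kb. In Ctrl the median score per kb was 19.4 in the nearest and 21.2 in the farthest class, and in sKO it was 48.6 and 44.3. Median GC content fell from 44.7% to 40.9% across these classes, and its part in the result was not tested.

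**Figure D4:**
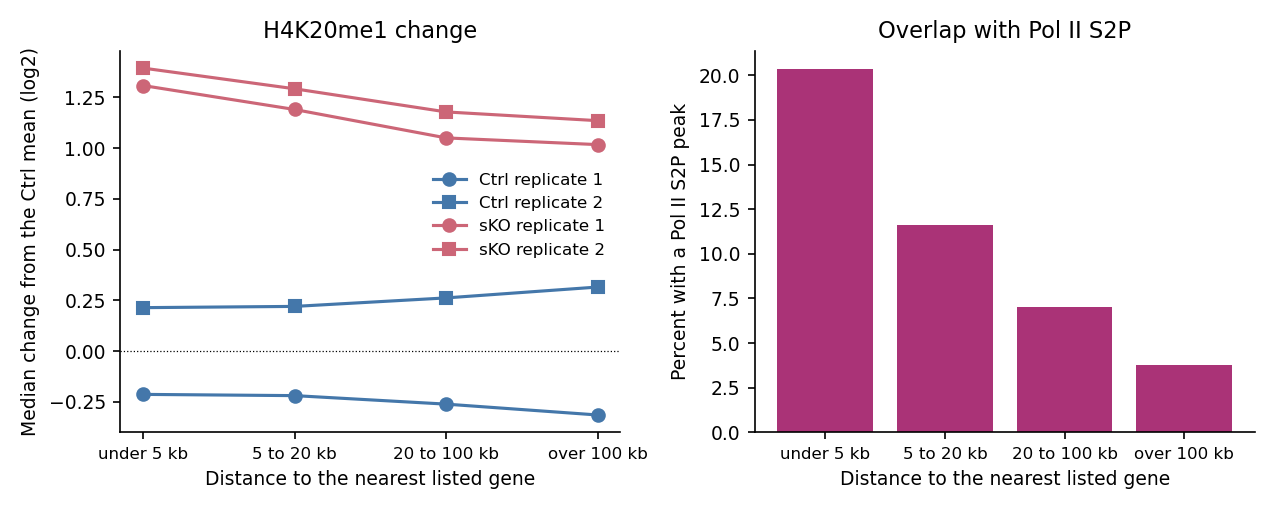
Left, median H4K20me1 change of intergenic peaks from the Ctrl mean (log2) in each library, by distance to the nearest listed gene. Right, percent of the peaks in each distance class that overlap a Pol II S2P peak, falling from 20.4% to 3.77%; both sKO libraries decline from the nearest to the farthest class.

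No Pol II S2P peak inside these regions was called changed. Its score summed over the 1285 peaks was 78035 and 102422 in Ctrl against 125101 and 87278 in sKO. The genotypes overlapped, with an exact two-sided permutation p of 0.667. Of the 591 that passed the filter on low values, 0 were called higher and 0 lower by limma, against 0.0447% and 0.00447% of all autosomal Pol II S2P peaks tested. At an unadjusted p under 0.05, 29 (4.91%) were higher and 1 (0.169%) lower, against 3.31% and 0.152% of all. With 2 libraries per genotype this does not show that the scores did not differ. Scores were also simulated with the real scale difference between replicates and an assumed variance of 4 times the mean. There, 2 of 88 Pol II S2P peaks changed by 1 on the log2 scale were recovered. For changes of 2 it was 62 of 75. Over the 591 peaks the median log2 fold change was 0.17, against 0.11 over all autosomal Pol II S2P peaks tested. It turned to -0.04 when Ctrl replicate 1 was left out and to -0.06 when sKO replicate 1 was. Leaving out sKO replicate 2 gave 7 calls. With equal totals 28 were called higher and 3 lower (4.74% and 0.508%), against 2.51% and 1.19% of all. These peaks took 2.42% and 2.44% of the autosomal Pol II S2P score in Ctrl and 2.59% and 2.57% in sKO, which did not overlap (exact two-sided permutation p = 0.333, the smallest possible).

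The longest intergenic peaks were domains of over 50 kb whose changes lay below the median of the class. The longest, 74.4 kb on chromosome 5 (111634600 to 111708999), lay 25.3 kb downstream of the long non-coding RNA gene E130006D01Rik and scored 1956 and 2523 in Ctrl against 3437 and 3386 in sKO. Its change in log2 score was 0.62 ± 0.28 (SE, adjusted p = 0.033 by limma) and turned to -0.36 with equal totals. It was not called without Ctrl replicate 1 (0.44), sKO replicate 1 (0.61) or sKO replicate 2 (0.63). The second, 73.4 kb on chromosome 9 near Gm47203, scored 1787 and 2627 in Ctrl against 2714 and 2897 in sKO and was not called (limma adjusted p = 0.19). With equal totals it was called lower (-0.61, adjusted p = 1.5e-19 by limma). The next, 66.0 kb on chromosome 2 near Cdh26, a cadherin gene, scored 1251 and 1774 in Ctrl against 2905 and 3484 in sKO and rose by 1.09 ± 0.28 on the log2 scale (SE, adjusted p = 0.00018 by limma). With equal totals its change was 0.11 and not called, and the call was also lost without sKO replicate 2 (0.96).

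Among peaks with a mean score over 50, the densest intergenic peaks in Ctrl, whose middle sequences are given above, were all shorter than 1 kb and scored low in total. The peak near 4933405E24Rik (chromosome 11, 54214400 to 54215199) scored 58 and 68 in Ctrl against 70 and 119 in sKO. That near Kcnk12 (chromosome 17, 87872600 to 87873399) scored 35 and 69 in Ctrl against 48 and 68 in sKO. Neither was called, and the genotypes overlapped at Kcnk12. That near Tgfbr3, the gene of a TGF-beta co-receptor, scored 40 and 34 in Ctrl against 93 and 110 in sKO and rose by 1.43 ± 0.58 (SE, adjusted p = 0.017 by limma). Its mean was 37 in Ctrl and 101.5 in sKO, so it passed the filter through sKO alone and its rise is a description. Its call was lost with equal totals (0.47) and without sKO replicate 2 (1.31). The peaks near 4933405E24Rik and Tgfbr3 each lay over a Pol II S2P peak, and that near Kcnk12 did not.

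The peaks farthest from any listed gene rose as well. Genes with no listed peak did not count, so an unlisted gene can lie much nearer to them. The farthest lay 1640 kb upstream of Tpm3-rs7 on chromosome 14 (111670400 to 111674799) and scored 74 and 90 in Ctrl against 302 and 321 in sKO. Its change in log2 score of 1.92 ± 0.35 (SE, adjusted p = 5.9e-07 by limma) was above the class median. The peak 1493 kb downstream of Diaph3, a formin gene, scored 106 and 162 in Ctrl against 237 and 219 in sKO, with a log2 fold change of 0.79 that turned to -0.18 with equal totals and was not called without Ctrl replicate 1 (0.49), sKO replicate 1 (0.74) or sKO replicate 2 (0.85). The peak 1470 kb downstream of Gm31135 on chromosome 8 scored 99 and 97 in Ctrl against 329 and 274 in sKO, with a log2 fold change of 1.61. At all 3 the genotypes were apart, and none overlapped Pol II S2P.

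The intergenic peaks with the most Pol II S2P lay within 5 kb past the ends of listed genes. The first, 2.2 kb long, began 971 bases downstream of Ywhaz, which encodes a 14-3-3 protein. The Pol II S2P peak that overlapped it spanned 8492 bases, most of them outside it. That whole Pol II S2P peak scored 1483 and 2268 in Ctrl against 3383 and 2009 in sKO. The H4K20me1 peak scored 73 and 103 in Ctrl against 86 and 132 in sKO. Both scores overlapped between genotypes. The second lay 2.29 kb downstream of Rplp1, a ribosomal protein gene, and held 4 Pol II S2P peaks. It scored 209 and 307 in Ctrl against 345 and 482 in sKO for H4K20me1 and rose by 0.68 ± 0.30 on the log2 scale (SE, adjusted p = 0.025 by limma). It was not called without Ctrl replicate 1 (0.41), sKO replicate 1 (0.93) or sKO replicate 2 (0.44). The next lay 3.48 kb downstream of Bcar1, the gene of an adaptor of focal adhesions. It scored 99 and 112 in Ctrl against 302 and 290 in sKO for H4K20me1 and rose by 1.48 on the log2 scale, while its Pol II S2P score of 940 and 1261 in Ctrl against 1895 and 1187 in sKO overlapped between genotypes. With equal totals the peaks near Ywhaz and Rplp1 turned to -0.68 and -0.29.

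The largest rises started from scores near 0 in Ctrl. These peaks were chosen by this fold change and passed the filter through sKO alone, so their values are a description. The peak 11.3 kb upstream of Fos, an AP-1 subunit gene, scored 0 and 23 in Ctrl against 104 and 86 in sKO, with a log2 fold change of 4.29. That value was 2.53 with a pseudocount of 10, 1.99 without Ctrl replicate 1 and 6.58 without Ctrl replicate 2. The peak near Tg, the thyroglobulin gene, scored 4 and 18 in Ctrl against 146 and 116 in sKO. That 1.66 kb upstream of Arl1, the gene of a small GTPase, scored 9 and 7 in Ctrl against 121 and 98 in sKO. At the other end, the peak 7.97 kb upstream of Tpm4, a tropomyosin gene, scored 40 and 119 in Ctrl against 32 and 21 in sKO, with a change in log2 score of -1.38 ± 0.73 (SE, adjusted p = 0.067 by limma). It was the peak called lower, a call lost without Ctrl replicate 2 (-0.61) or sKO replicate 2 (-1.09), and its Ctrl libraries differed by more than the genotypes' nearest values. The peaks near Cdh11 (83 and 152 in Ctrl, 76 and 57 in sKO) and Ppt1 (55 and 114 in Ctrl, 39 and 66 in sKO) were lower in mean but not called. None of the 3 overlapped Pol II S2P.

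Intergenic peaks whose nearest listed gene belonged to a list of 37 satellite cell, growth and H4K20 methylation genes, drawn up with earlier results of these data known, were called higher in sKO throughout. There were 31 such peaks for 15 of the genes, and all 31 were called higher. This stands beside 87.3% of intergenic and 90.1% of all autosomal peaks tested. Their median log2 fold change was 1.62 against 1.20, and 11 of them (35.5%) overlapped Pol II S2P against 10.2%. With equal totals the median was 0.64, and 17 were called higher and 0 lower. On that scale 24.7% of intergenic and 22.6% of all autosomal peaks were called higher, and 2.7% and 4.41% lower. Of the 31 peaks, 9 lay nearest to Cxcr4.

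The peak 2.67 kb upstream of Myod1, the myogenic determination factor, spanned 8.2 kb of chromosome 7 (46365600 to 46373799) and held the window with 4 E-box matches shown above. It scored 39 and 52 in Ctrl against 304 and 423 in sKO. Its Ctrl mean of 45.5 lay under the filter limit of 50, so it passed through sKO alone. Every sKO value was above both Ctrl values, and the change in log2 score was 2.96 ± 0.39 (SE, adjusted p = 4.8e-12 by limma), or 1.99 with equal totals. The Pol II S2P score over the same peak was 49 and 51 in Ctrl against 45 and 38 in sKO. It came from 2 Pol II S2P peaks under the filter on low values, which were not tested. The peak 12.9 kb upstream of Notch1, a receptor of satellite cell quiescence, spanned 25 kb of chromosome 2 (26529600 to 26554599) and held 4 Pol II S2P peaks. It scored 368 and 367 in Ctrl against 1354 and 1468 in sKO, up by 1.94 ± 0.27 on the log2 scale (SE, adjusted p = 8.5e-11 by limma). The genotypes were far apart there and the replicates close.

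The peak 1.39 kb upstream of Hes1, a Notch target, scored 34 and 34 in Ctrl against 192 and 260 in sKO, and its log2 fold change was 2.68. The peak near Met, the receptor of hepatocyte growth factor, scored 27 and 49 in Ctrl against 176 and 275 in sKO, with a log2 fold change of 2.56. Both kept their call with equal totals, at 1.71 and 1.60. Near Notch2 the scores were 22 and 31 in Ctrl against 133 and 115 in sKO. Near Myog, the factor of terminal differentiation, a peak starting 252 bases past the gene scored 27 and 54 in Ctrl against 160 and 107 in sKO. Its Pol II S2P score was 332 and 412 in Ctrl against 622 and 281 in sKO, which overlapped. The genotypes were apart for H4K20me1 at both. The call near Myog was lost with equal totals (0.78) and without sKO replicate 1 (1.46). The Ctrl means near Hes1 (34), Met (38), Notch2 (26.5) and Myog (40.5) lay under 50, so these peaks passed the filter through sKO alone.

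At Pax7, the marker of satellite cells, the highest of 3 intergenic peaks lay 12.1 kb upstream and scored 308 and 394 in Ctrl against 791 and 837 in sKO, up by 1.22 ± 0.28 on the log2 scale (SE, adjusted p = 3.7e-05 by limma). This was near the class median and came to 0.24, not called, with equal totals. At Pax3, its paralogue, the scores were 199 and 273 in Ctrl against 382 and 475 in sKO, with a log2 fold change of 0.87 that turned to -0.11 with equal totals and was not called without sKO replicate 1 (1.02) or sKO replicate 2 (0.71). Upstream of Cxcr4, a chemokine receptor gene with 9 intergenic peaks, the highest scored 292 and 310 in Ctrl against 730 and 969 in sKO. Near Calcr, a receptor of quiescent satellite cells, the scores were 191 and 278 in Ctrl against 639 and 791 in sKO. The values rose at each of these and the genotypes did not overlap. Near Kmt5c, the gene of the remaining methyltransferase of this pair, the scores were 94 and 85 in Ctrl against 263 and 246 in sKO, and the peak was called higher on the deposited scale but not with equal totals (0.52). The peaks near Spry1, Ccnd1 and Myc changed by 1.44, 1.39 and 1.58 on the log2 scale, and the first pair lost their calls with equal totals (0.46 and 0.41). That near Myc lost its call with quantile normalisation (0.32), as did those near Cxcr4 (0.34) and Calcr (0.45).

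**Figure D5:**
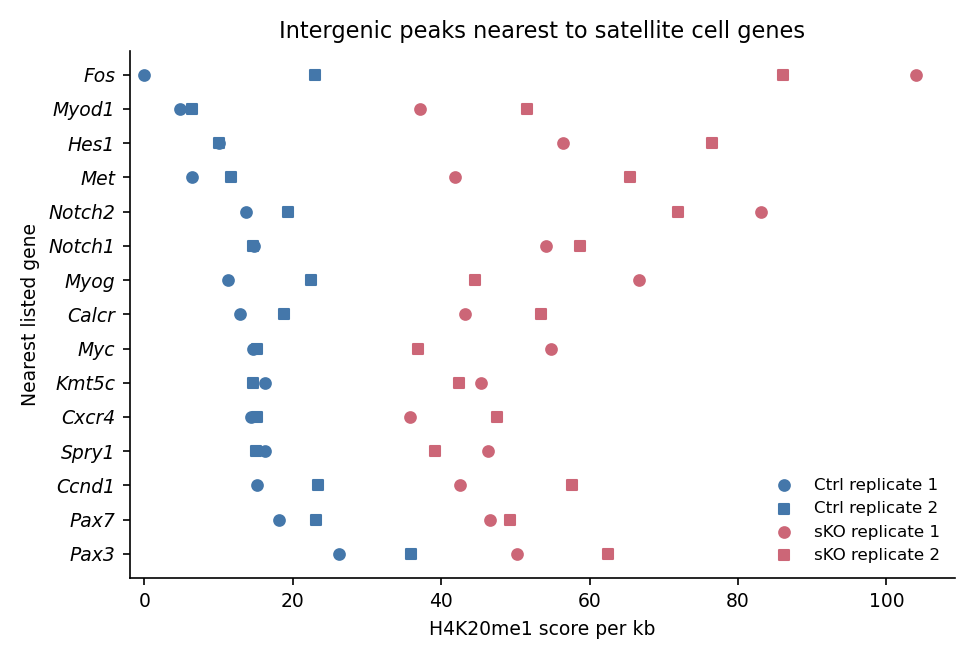
H4K20me1 score per kb in each library at the intergenic peak with the highest Ctrl score for each of 15 satellite cell genes, ordered by log2 fold change. In every row both sKO libraries lie above both Ctrl libraries.

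Other neighbourhoods, matched by the start of the gene symbol, gave medians on either side of that of the class, and their counts called higher stand beside 87.3% of intergenic and 90.1% of all autosomal peaks. Peaks nearest to cell cycle and growth genes had a median log2 fold change of 1.47, with 20 of 21 called higher. Those nearest to cytoskeleton, matrix and TGF-beta genes stood at 1.34, with 57 of 62 called higher and 1 lower, the peak near Tpm4. Of these 62 peaks, 5 lay nearest to Smad2, which encodes a mediator of TGF-beta signalling. Those nearest to adhesion and synaptic genes stood at 1.14, with 78 of 93 called higher. Developmental transcription factors such as Irx5, Meis1 and Sox6 were nearest to 145 peaks, of which 144 were tested and 120 called higher, with a median of 0.93. Olfactory and vomeronasal receptor genes, known mainly from sensory neurons, were nearest to 31 peaks, of which 20 were called higher, with a median of 0.91 and no overlap with Pol II S2P in 31. With equal totals the medians of these last groups turned to -0.04 and -0.06. The share with Pol II S2P was 28.6% for cell cycle genes, 22.6% for the group with cytoskeleton genes, 7.53% for adhesion genes and 5.52% for developmental factors.

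The 3 runs described next had median changes below the class median of 1.20. The run of 34 peaks near Dhx35 summed to 4148 and 6567 in Ctrl against 10028 and 10589 in sKO, with a median log2 fold change of 0.93 and 29 peaks (85.3%) called higher, against 90.1% of all autosomal peaks. A run of 33 peaks between Gm26026 and Psat1 on chromosome 19 summed to 5807 and 8352 in Ctrl against 12836 and 14607 in sKO, with a median of 1.06. A run of 24 peaks from A930031H19Rik to Gm831 on chromosome 4 summed to 8565 and 13039 in Ctrl against 16150 and 16782 in sKO, with a median of 0.61 and 14 peaks (58.3%) called higher. The genotypes were apart in all 3 sums. Pol II S2P overlapped 1, 1 and 0 peaks of these runs.

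The motifs were counted over all Pol II S2P peaks inside the intergenic peaks, in the 300 bases at their middle. AP-1 matches stood in 29.8% of these 1285 windows and E-box matches in 32.1%. In the middles of intergenic peaks without Pol II S2P the shares were 9.38% and 12.9%, and in Pol II S2P peaks listed with a gene 18.4% and 24.8%. Pol II S2P peaks with no gene that lay outside H4K20me1 peaks had shares of 30.3% and 30.5%, close to those inside them. In RefSeq promoters of the same length the shares were 7.81% and 16.3%. TEAD matches stood in 22.3% of the windows against 18.7% of all autosomal Pol II S2P peaks, KLF matches in 28.3% against 29.5%, and MEF2 matches in 0.934% against 0.566%. Median GC content of the windows was 48.7% inside the intergenic peaks with Pol II S2P and 44.0% in the middles of those without.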

How the data were processed

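H4K20me1 and Pol II S2P were mapped in 8 libraries, 2 per genotype and antibody. The study's reporting summary calls them biological replicates. The authors trimmed reads with Trimmomatic 0.39, aligned them to mm10 (GRCm38) with STAR 2.7.3a, removed duplicates with Picard 2.21.7 and normalised coverage by S2 cell spike-in. SICER 0.0.41 and MACS2 2.1.1 are named in the submitters' processing notes without saying which table each made, and FastQC 0.11.8 is named as well. The deposited score is a whole number per union peak and library, treated here as normalised coverage and not as reads. The depth in reads is therefore unknown here, and no counting interval is given for a score. The 2 IgG libraries were not analysed here. Deposited columns also hold each peak's listed gene, which defined the intergenic class.

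Peak length was stop minus start plus 1. Distance was measured to the nearest gene listed in either table, and overlap with Pol II S2P required 1 base. GC, repeats and sequences were read from GRCm38.p6 (RefSeq) with pysam 0.24.0, and GENCODE M21 gave gene overlap. Genotypes were compared with limma 3.58.1 in R 4.3.3 (eBayes with a trend) on log2(score + 1) over all autosomal peaks of an antibody with a mean over 50. That mean was taken over all 4 libraries, so a peak could pass the filter through 1 genotype alone. A peak was called when its p, adjusted by Benjamini-Hochberg, was below 0.1 and its log2 fold change lay above 0.5 or below -0.5. The pseudocount shrinks the change of low peaks. Classes were compared with 1 value per library by an exact two-sided permutation test. Class values were computed with pandas 2.3.3, numpy 2.4.6 and scipy 1.17.1 in Python 3.11.15. The procedure was first tested on simulated scores with known changes. Their variance was set to 4 times the mean, 200 peaks were changed and no shift of all peaks between genotypes was added. The recovered shares therefore do not carry over to the H4K20me1 calls, where most peaks were called. With the real scale difference between replicates, 21 of 85 H4K20me1 and 2 of 88 Pol II S2P peaks changed by 1 on the log2 scale were recovered. For changes of 2 these were 108 of 113 and 62 of 75. Without that scale difference, 85 of 100 and 47 of 80 peaks changed by 1 were recovered. False calls numbered 8 for H4K20me1 and 14 for Pol II S2P without it, and 0 for each with it.

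Named peaks were the 3 longest, the 3 farthest from a listed gene and the 3 highest in Pol II S2P. Among those with a mean over 50, the 3 densest in Ctrl, most raised and least raised were also named. The peak with the highest Ctrl score nearest to each gene of the satellite cell, growth and H4K20 methylation list was named too. The members, lists and rules were chosen with earlier results of these data known. Alternatives were other pseudocounts (10), filters (none, mean over 200), scalings, overlaps, bins, a replicate block and leaving out each library.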

Additional observations from a re-analysis of the deposited data

Results flagged for a closer look

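The H4K20me1 peaks on X that were listed with no gene lay outside the comparisons above, and are given because they showed a signal. There were 1921 of them, 49.0% of the H4K20me1 peaks on X against 22.1% on autosomes. Their median log2 fold change was 0.315 over the 1905 with a mean score over 50, against 1.20 for the autosomal class and 0.45 for gene-listed peaks on X. Their summed score was 448142 and 637633 in Ctrl against 652610 and 724447 in sKO. The genotypes did not overlap and lay close. X held 28.0% and 28.3% of the intergenic score in Ctrl and 18.4% and 18.5% in sKO (exact two-sided permutation p = 0.333, the smallest possible). Their median score per kb was 28.6 in Ctrl and 35.6 in sKO by group means, and 24 of them overlapped Pol II S2P. The labels do not give the sex of the mice behind each library.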

How the results depend on the processing

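The calls rest on the scale between libraries. Intergenic peaks called higher went from 7847 to 4070 with a mean over 200, 2219 with equal totals and 923 with quantile normalisation, and ran from 4120 to 8807 when a library was left out (4120 without sKO replicate 2, 5203 without sKO replicate 1). Peaks called lower numbered 0 with a mean over 200, 243 with equal totals and 1317 with quantile normalisation, and 0 to 17 with a library left out (17 without Ctrl replicate 1). The median change was 0.22 with equal totals and -0.047 with quantile normalisation. The excess over gene-listed peaks turned to -0.049 with quantile normalisation, -0.030 within length bins and -0.11 within 10 bins of Ctrl level. It was 0.0017 at 10 kb or more from a listed gene. The rise in the share of the score was 0.60 percentage points at 10 kb or more from a listed gene. The Pol II S2P overlap was 5.27% with only Pol II S2P peaks of a mean over 50, against 19.5% of gene-listed peaks, and 11.5% within length bins. The excess of peaks with Pol II S2P was 0.70 with only those Pol II S2P peaks, 0.41 within 10 bins of Ctrl level, and 0.39 to 0.65 with a library left out. For this excess, the settings by Pol II S2P mean, Ctrl level, distance and GC were chosen after seeing the data, as were quantile normalisation for it and for the distance difference and the comparisons of peaks without Pol II S2P. The distance difference was -0.34 to -0.16 with a library left out. Calls of Pol II S2P peaks numbered 31 with equal totals, 27 with quantile normalisation and 0 to 7 with a library left out, and their median change ran from -0.063 to 0.40.

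The replicate numbers were not taken as pairs, since the deviations of same-numbered libraries correlated at 0.05 for H4K20me1 and at -0.04 for Pol II S2P. With a replicate block, 7921 intergenic peaks were called higher and 0 lower.

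With equal totals, the named peaks near Gm47203 (-0.61), 4933405E24Rik (-0.44), Kcnk12 (-0.75), Diaph3 (-0.18), E130006D01Rik (-0.36), Ywhaz (-0.68), Rplp1 (-0.29) and Pax3 (-0.11) reversed. Of these, the peak near Gm47203 was then called lower. A further 7 of the 32 named peaks lost their call (Cdh26, Tgfbr3, Pax7, Myog, Spry1, Ccnd1 and Kmt5c). Another 2 gained a call as lower (Cdh11 and Ppt1) and 15 kept their status. With quantile normalisation the 8 reversed peaks stood, in the same order, at -0.42, -0.85, -1.23, -0.48, -0.15, -1.04, -0.51 and -0.33, and Tgfbr3 at -0.041. On that scale 12 other named peaks lost their call and 9 of the 32 kept their status. Among the 12 were Gm31135 (0.34), Bcar1 (0.21), Cxcr4 (0.34), Notch2 (0.70), Calcr (0.45) and Myc (0.32), which had kept their call with equal totals. With a library left out, Kcnk12 ran from -0.27 (no Ctrl replicate 1) to 0.69 and Ywhaz from -0.012 (no sKO replicate 2) to 0.60. Calls were lost near E130006D01Rik, Diaph3 and Rplp1 without Ctrl replicate 1 or either sKO library, near Tpm4 without Ctrl replicate 2 or sKO replicate 2, near Pax3 without either sKO library, near Myog without sKO replicate 1, and near Cdh26 and Tgfbr3 without sKO replicate 2. Calls were gained near Cdh11 (-1.20) and Ppt1 (-1.15) without Ctrl replicate 1 and near Gm47203 (0.65) and 4933405E24Rik (0.65) without Ctrl replicate 2. Depth in reads is unknown here and 2 libraries per group limit every comparison. The cause of these shifts was not tested.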
